A study of Mus musculus with 8 samples.

Results

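The genes described here load peptides onto MHC class I molecules or cut them for that purpose. They are the heavy chains H2-K1 and H2-D1, the light chain B2m, the transporter and loading genes Tap1, Tap2 and Tapbp, the immunoproteasome subunits Psmb8, Psmb9 and Psmb10, and the proteasome activator subunit Psme2. Members were chosen by gene symbol alone, taking every probe of the array that carried one of these 10 symbols. The table of 25697 probes held 13 such probes for 9 of the symbols, and H2-D1 was not among them. Of the 13, 12 were detected on enough arrays to be tested, among 13868 tested probes for 10163 symbols in all.

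The RNA came from bone marrow macrophages of female mice aged 8 weeks, given as C57bl/6J and either WT or labelled iNOS deficient. iNOS, the product of Nos2, makes nitric oxide in activated macrophages, and the study's methods name a germline mutant strain, so the gene is altered in every cell and not in macrophages alone. That strain is listed under its own strain name beside C57bl/6J, so a difference in strain background cannot be told apart from genotype. All cultures were derived from marrow cells kept with GM-CSF at 10 ng/ml over 7 days. They stayed without stimulus (CON) or received LPS (200 ng/ml) with IFN-γ (10 ng/ml) over 6 h, a treatment that drives M1 activation. Each of the 4 groups, WT CON, WT M1, iNOS-/- CON and iNOS-/- M1, was read on 2 Illumina bead arrays. Whether the pair of arrays in a group stands for separate mice or cultures is not given in the labels, so the errors and p-values below measure the spread between arrays, which may be technical.

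Class I molecules display short peptides from the cell's own proteins to CD8 T cells. Proteasomes cut these peptides, the TAP transporter carries them into the endoplasmic reticulum, and tapasin (Tapbp) holds empty class I molecules next to TAP until a peptide fits. Interferons are known to replace the catalytic proteasome subunits Psmb5, Psmb6 and Psmb7 by Psmb8, Psmb9 and Psmb10, which gives the immunoproteasome, and to raise both subunits of the activator PA28, Psme1 and Psme2.

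Several of these genes are neighbours. In the RefSeq gene table of mouse assembly GRCm38.p6, Psmb9, Tap1, Psmb8 and Tap2 lie in this order on chromosome 17, which also carries H2-K1, H2-D1 and Tapbp. B2m is on chromosome 2, Psmb10 on chromosome 8 and Psme2 on chromosome 14. Tap1 and Psmb9 are transcribed away from each other, and the 225 bases between their starts (chr17:34187331-34187555, plus strand, the strand of Tap1) are shown because they serve as the upstream region of both.

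Tap1 and Psmb9: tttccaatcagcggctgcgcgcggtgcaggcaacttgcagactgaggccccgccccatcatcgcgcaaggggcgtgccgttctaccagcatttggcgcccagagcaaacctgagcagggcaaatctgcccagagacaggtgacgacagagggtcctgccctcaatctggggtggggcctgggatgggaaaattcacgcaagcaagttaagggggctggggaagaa

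RefSeq promoter windows, which run from 250 bases before to 50 bases after a start, were given for 9 of the 10 genes, with Tap2 the exception. They were searched on both strands for GAAANNGAAA (interferon-stimulated response element), TTCNNNGAA (gamma-activated site) and GGGANNNNCC (kappa B). Of all 32851 windows, 3.44% held the first, 8.3% the second and 20.7% the third. Among the 9 genes the first was found in B2m alone, the second in Psmb8 alone, and the third in B2m, H2-D1 and H2-K1. The kappa B matches lay on both strands with an offset of 1 base, so each of these windows held overlapping matches. They read GGGAAAGTCC on the plus strand of B2m and GGGATTCCCC in H2-K1 and H2-D1. In B2m the first motif lay directly upstream of the kappa B match. No match to these letters was found for Tap1, Psmb9, Psmb10, Psme2 or Tapbp, which says only that the letters are not in these windows. The 250 bases before the starts of B2m (chr2:122147437-122147686, plus strand) and Psmb8 (chr17:34197945-34198194, plus strand) are shown with the matches in capitals.

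B2m: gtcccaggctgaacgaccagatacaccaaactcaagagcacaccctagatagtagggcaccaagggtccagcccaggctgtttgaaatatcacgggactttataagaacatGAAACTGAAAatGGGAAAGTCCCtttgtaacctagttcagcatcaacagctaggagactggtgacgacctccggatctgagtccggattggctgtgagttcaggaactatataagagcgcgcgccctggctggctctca
Psmb8: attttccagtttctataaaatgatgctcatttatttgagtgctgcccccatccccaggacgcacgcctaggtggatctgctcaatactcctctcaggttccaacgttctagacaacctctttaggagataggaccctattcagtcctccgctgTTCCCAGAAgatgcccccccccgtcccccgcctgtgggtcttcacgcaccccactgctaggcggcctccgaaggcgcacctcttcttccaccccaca

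The probes are 50 bases long. B2m had a pair of probes, at positions 321 and 322 of its transcript, that share 49 bases, so they read the same stretch and are no independent evidence of each other. Capitals mark the single base that each has alone.

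B2m, position 321: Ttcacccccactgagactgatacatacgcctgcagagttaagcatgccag
B2m, position 322: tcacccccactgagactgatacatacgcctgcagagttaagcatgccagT

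H2-K1 belongs to a family of near-identical heavy chains. Its probe shared no run of 14 bases with a probe of another gene, but the transcripts of other heavy chains were not searched, so its values are uncertain to the extent that they bind it. The sequence is given so that it can be searched.

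H2-K1, position 842: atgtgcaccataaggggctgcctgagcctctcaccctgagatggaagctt

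Intensities are given on the log2 scale, after scaling of all arrays to their mean. A detection p-value under 0.05 counted as detected, and 46.0% to 49.3% of the probes on an array were. Mean intensity per array ran from 155 to 224 before scaling, and the number of arrays limits the precision of every value. Nos2, the targeted gene, was not detected on any CON array and reached a mean log2 intensity of 7.26 ± 0.30 (SD, n = 2 arrays) in WT M1. With 7.58 ± 0.13 (SD, n = 2) it was no lower on the arrays labelled iNOS-/- M1, and limma did not call the difference (adjusted p = 0.445). The methods name the mutant strain, but neither they nor the labels say which part of Nos2 is altered. The probe, at transcript position 3546, therefore cannot check the genotypes, and every direction below rests on them as labelled. Of 10 macrophage markers, 9 were detected on every array and Msr1 was on none. Markers of T and NK cells, B cells and stroma were not detected on both arrays of any group, with summed intensities of at most 18.7 in any list.

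All 9 genes, each counted by its brightest probe, had their highest mean on the arrays labelled iNOS-/- M1. Against WT M1, 7 of the 9 were called higher there and 0 lower, where 23.7% of all genes tested were called higher and 26% lower. Within the iNOS-/- label, 9 of 9 were called higher in M1 than in CON and 0 lower, against 25.2% and 26.8% of all genes. In WT, activation gave 6 higher and 0 lower, against 20.9% and 15.5%. Without stimulus, 5 were called higher on the iNOS-/- arrays and 1 lower, against 17.9% and 16.2%, so the lower share was not above that of all genes. Tap1, Tap2, Psmb8, Psmb9 and Psme2 were called higher there by between 1.03 and 1.45 on the log2 scale, H2-K1 was called lower by 0.98, and B2m, Psmb10 and the brighter Tapbp probe were not called.

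**Figure D1:**
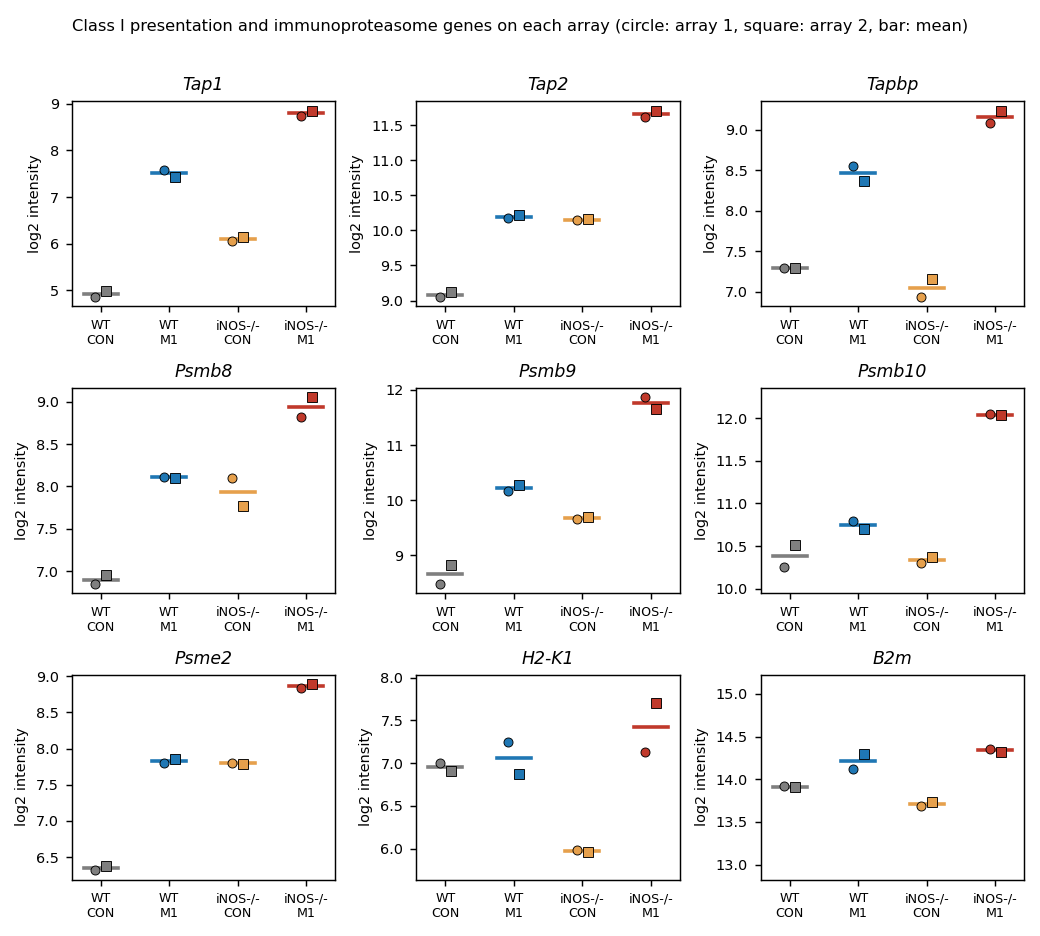
Log2 intensity of the brightest probe of each of the 9 genes, by group, with 1 point per array (circle array 1, square array 2) and a bar at the mean of 2 arrays. The y axes differ in position between genes, and in all 9 panels the mean of iNOS-/- M1 is the highest, while iNOS-/- CON lies below WT CON for Tapbp, H2-K1 and B2m.

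Tap1 and Tap2 form the peptide transporter. Tap1 had log2 intensities of 4.86 and 4.99 in WT CON, 7.59 and 7.42 in WT M1, 6.06 and 6.14 in iNOS-/- CON, and 8.73 and 8.85 in iNOS-/- M1. No groups overlapped, and the order ran from WT CON through iNOS-/- CON and WT M1 to iNOS-/- M1. M1 activation raised Tap1 by 2.58 (5.98-fold, standard error 0.11, adjusted p = 0.000111 from limma) in WT and by 2.69 (6.45-fold, standard error 0.11, adjusted p = 5.62e-05) under the iNOS-/- label. These were the largest responses to activation among the 9 genes by their brightest probes, and they differed between genotypes by 0.11 (95% confidence interval -0.28 to 0.50), which was not called. Between genotypes Tap1 was higher by 1.18 without stimulus (adjusted p = 0.00143) and by 1.29 in M1 cells (adjusted p = 0.00066).

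Tap2 had log2 intensities of 9.05 and 9.12 in WT CON, 10.17 and 10.22 in WT M1, 10.15 and 10.16 in iNOS-/- CON, and 11.61 and 11.71 in iNOS-/- M1. The unstimulated iNOS-/- arrays thus reached the level of activated WT cells: the means were 0.04 apart, less than the standard error of 0.08 of a difference between groups. Activation raised Tap2 by 1.11 in WT (2.16-fold, adjusted p = 0.000667) and by 1.51 under the iNOS-/- label (2.84-fold, adjusted p = 0.000127). The genotypes differed by 1.07 (adjusted p = 0.000822) before and by 1.47 (adjusted p = 0.000256) after activation.

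Tapbp encodes tapasin, and its 2 probes, at positions 1036 and 2040, both gave a different order from that of the transporter. The probe at 1036 read 7.30 and 7.30 in WT CON, 8.55 and 8.37 in WT M1, 6.93 and 7.15 in iNOS-/- CON, and 9.09 and 9.23 in iNOS-/- M1. The probe at 2040 read 7.04 and 7.26, 8.17 and 8.27, 6.35 and 6.34, and 8.89 and 8.85 in the same order of groups. On both probes iNOS-/- CON was the lowest group and iNOS-/- M1 the highest, without overlap. The probes disagreed on the size of the unstimulated difference, -0.25 at 1036, which was not called (adjusted p = 0.18), and -0.80 at 2040, which was (adjusted p = 0.00419). Their average gave -0.53 (adjusted p = 0.00833 from limma), a call. In M1 cells they gave 0.70 (adjusted p = 0.00702) and 0.65 (adjusted p = 0.00498). The response to activation was 1.16 in WT and 2.12 under the iNOS-/- label at 1036, and 1.07 and 2.53 at 2040, all called.

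**Figure D2:**
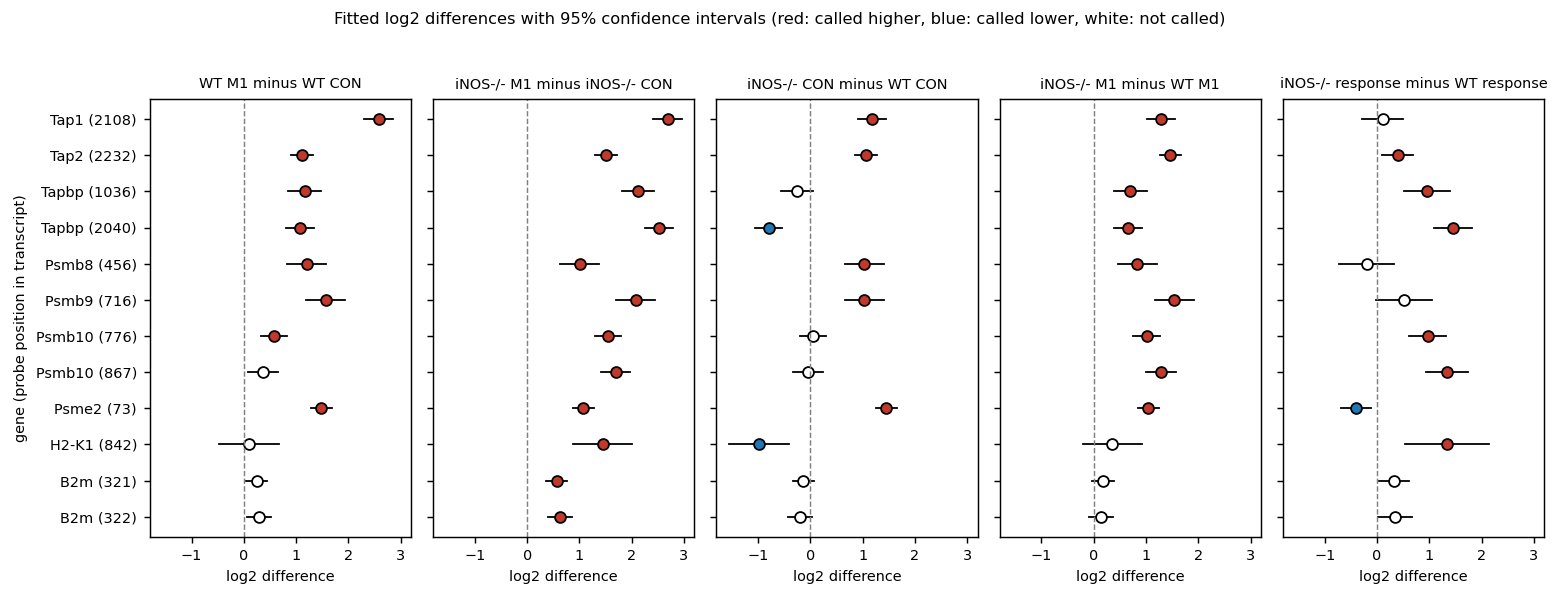
Fitted log2 differences of the 12 tested probes with 95% confidence intervals, in 5 panels, 1 for each comparison. Filled points were called (red higher, blue lower). In the panel of unstimulated genotypes, probes of Tap1, Tap2, Psmb8, Psmb9 and Psme2 lie near 1 or above, while those of H2-K1 and the Tapbp probe at 2040 lie below 0.

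Psmb8, Psmb9 and Psmb10 encode the inducible catalytic subunits beta5i, beta1i and beta2i. Psmb9 had log2 intensities of 8.48 and 8.83 in WT CON, 10.16 and 10.28 in WT M1, 9.66 and 9.70 in iNOS-/- CON, and 11.87 and 11.65 in iNOS-/- M1. Its groups did not overlap, and they ran in the order seen for Tap1, its divergent neighbour. Psmb9 was 2.91-fold higher in iNOS-/- M1 than in WT M1 (log2 1.54, standard error 0.15, adjusted p = 0.000952), the largest of the M1 genotype differences among the 9 genes, and 2.04-fold higher without stimulus (adjusted p = 0.00595). Psmb8 read 6.85 and 6.95 in WT CON, 8.12 and 8.10 in WT M1, 8.10 and 7.77 in iNOS-/- CON, and 8.83 and 9.06 in iNOS-/- M1. Its unstimulated iNOS-/- arrays came just below WT M1, with means 0.18 apart against a standard error of 0.15. The genotype difference of Psmb8 was 1.03 without stimulus (adjusted p = 0.00572) and 0.83 in M1 cells (adjusted p = 0.00723).

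Psmb10 did not share the unstimulated difference. Its brighter probe, at position 867, read 10.26 and 10.51 in WT CON, 10.80 and 10.71 in WT M1, 10.31 and 10.38 in iNOS-/- CON, and 12.04 and 12.03 in iNOS-/- M1. The unstimulated groups overlapped, with a difference of -0.05 (95% confidence interval -0.33 to 0.24), and the probe at 776 gave 0.05 (-0.21 to 0.30). In WT the response to activation was 0.36 at 867, which was not called (adjusted p = 0.0566, called in 7 of 18 alternative settings), and 0.58 at 776, which was (adjusted p = 0.0101), though not without WT CON replicate 2 or WT M1 replicate 2. Under the iNOS-/- label it was 1.69 (adjusted p = 0.000221) and 1.55 (adjusted p = 0.000214). In M1 cells Psmb10 was 2.43-fold higher on the iNOS-/- arrays at 867 (adjusted p = 0.000711) and 2.02-fold at 776 (adjusted p = 0.00103).

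The subunits that these replace were also on the array. Psmb6 and Psmb7 were called higher in iNOS-/- M1 than in WT M1, by 0.64 (adjusted p = 0.00451) and 0.76 (adjusted p = 0.00569), although neither call held under quantile normalization (and that of Psmb6 was also lost with neqc). Psmb5 was 0.59 higher there and was not called (adjusted p = 0.0669). None of the 3 was called in the WT response or between unstimulated genotypes. Taking each inducible gene minus the gene it replaces on the same array cancels the scale factor of the array, and only changes of this difference between groups can be read, since probes bind with different strength. Relative to the WT CON mean, Psmb9 minus Psmb6 reached 1.57 and 1.76 in WT M1, 1.40 and 1.25 in iNOS-/- CON, and 2.63 and 2.50 in iNOS-/- M1. Psmb8 minus Psmb5 reached 1.55 and 1.75, 1.32 and 1.02, and 1.85 and 1.95. Psmb10 minus Psmb7 stayed lower, at 0.35 and 0.47, -0.03 and 0.14, and 0.82 and 1.04. For the first 2 pairs all arrays of the other groups lay above both WT CON arrays, whereas for Psmb10 minus Psmb7 iNOS-/- CON overlapped WT CON. These differences were not tested.

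**Figure D3:**
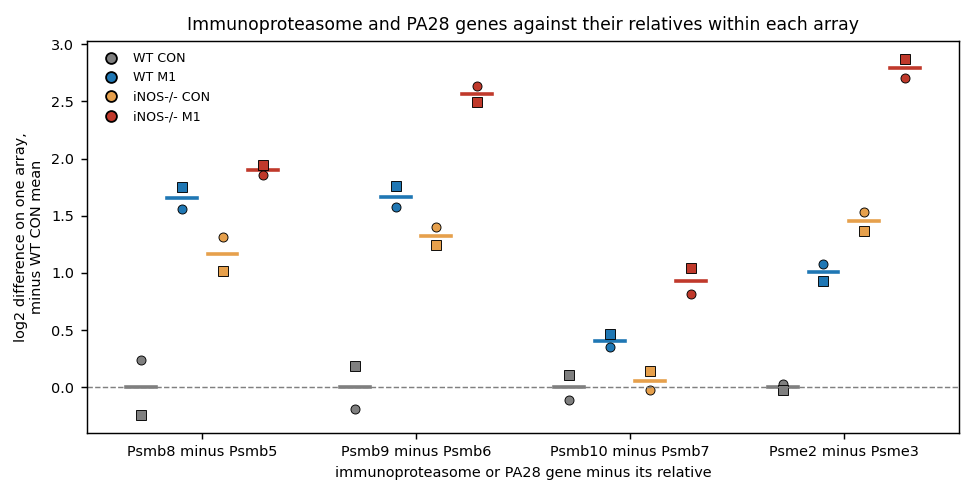
Log2 difference between 2 genes on the same array, minus the mean of that difference in WT CON, for 4 gene pairs, with 1 point per array and a bar at the mean of 2 arrays. Psme3 is a PA28 gene that forms a separate activator. The iNOS-/- M1 arrays are the highest in each pair, from 0.82 and 1.04 for Psmb10 minus Psmb7 to 2.70 and 2.87 for Psme2 minus Psme3.

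Psme2 encodes PA28 beta, which with PA28 alpha (Psme1) caps the proteasome. It had log2 intensities of 6.32 and 6.37 in WT CON, 7.80 and 7.85 in WT M1, 7.80 and 7.78 in iNOS-/- CON, and 8.84 and 8.89 in iNOS-/- M1. WT M1 and iNOS-/- CON overlapped. The unstimulated difference between genotypes, 1.45 (2.73-fold, standard error 0.08, adjusted p = 0.000285), was the largest among the 9 genes, and it was close to the WT response to activation of 1.48 (2.79-fold, adjusted p = 0.000223). In M1 cells the difference was 1.04 (adjusted p = 0.000489). Its neighbour and partner Psme1 was higher on the iNOS-/- arrays by 0.89 without stimulus (adjusted p = 0.00246) and 2.82-fold in M1 cells (adjusted p = 0.000341), and rose with activation by 0.95 in WT and 1.56 under the iNOS-/- label. Psme3 was 0.74 lower in iNOS-/- M1 than in WT M1 (adjusted p = 0.00472).

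H2-K1, a classical heavy chain that presents peptides to CD8 T cells, had the largest standard error of the 9 genes. It read 7.01 and 6.91 in WT CON, 7.25 and 6.88 in WT M1, 5.99 and 5.97 in iNOS-/- CON, and 7.13 and 7.71 in iNOS-/- M1. WT M1 overlapped both WT CON and iNOS-/- M1, and iNOS-/- CON lay below all other arrays. The unstimulated difference was -0.98 (1.98-fold lower, standard error 0.23, adjusted p = 0.0253). This call was lost without WT CON replicate 1 (-0.94) or 2 (-1.03) and without iNOS-/- CON replicate 1 (-0.99) or 2 (-0.97), with no detection filter and with the replicate number as a block. Activation raised H2-K1 by 1.44 (adjusted p = 0.0041) under the iNOS-/- label, while the WT response of 0.10 (95% confidence interval -0.47 to 0.67) and the M1 genotype difference of 0.36 (-0.21 to 0.93) were not called.

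B2m is the light chain shared by class I molecules. At position 322 it read 13.92 and 13.91 in WT CON, 14.12 and 14.29 in WT M1, 13.69 and 13.74 in iNOS-/- CON, and 14.36 and 14.32 in iNOS-/- M1. The order of groups was that of Tapbp, without overlap, but the only call was the rise of 0.63 with activation under the iNOS-/- label (adjusted p = 0.00315; 0.56 at 321, adjusted p = 0.00296), and it was lost under quantile normalization and neqc. The unstimulated difference was -0.20 (95% confidence interval -0.43 to 0.03), the M1 difference 0.13 (-0.10 to 0.36), and the WT response 0.29 (adjusted p = 0.0574, called in 6 of 18 alternative settings). Unscaled B2m intensities at 321 and 322 ran from 13079 to 19152, with array maxima of 19966 to 21956, and whether these signals were compressed was not tested. Another B2m probe, at position 535, was undetected on 7 of 8 arrays and was not tested.

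Other class I heavy chains were counted as a list of 21, of which 15 were in the table and 9 were tested. The 9 tested, of the Q, T and M series, are all nonclassical, and binding of their probes to transcripts of related heavy chains was not searched. On the unstimulated iNOS-/- arrays 4 of the 9 were called lower than in WT CON and 0 higher (16.2% and 17.9% of all genes). Their median was -0.81 (-0.69 with undetected genes at their bounds) against 0 for all genes. In M1 cells 5 were called higher and 0 lower (23.7% and 26% of all genes). Their median was 0.68 (0.56 at the bounds) against -0.03. H2-T23, which encodes the nonclassical molecule Qa-1, was lower by 0.81 (adjusted p = 0.00339) without stimulus and higher by 0.90 (adjusted p = 0.00141) in M1 cells. H2-Q7 was lower by 0.69 (adjusted p = 0.00717) and then higher by 0.45 (adjusted p = 0.0184), the latter call lost under quantile normalization and neqc and without WT M1 replicate 1 or 2 or iNOS-/- M1 replicate 2. H2-M2 was not called before activation (adjusted p = 0.998) and was higher by 1.09 (adjusted p = 0.000562) after it. With activation, 9 of 9 were called higher under the iNOS-/- label (25.2% of all genes) and 1 of 9, H2-M2, in WT (20.9%). The 9 calls under the iNOS-/- label were not all kept with some arrays left out. H2-T24 and H2-M9 were undetected on both iNOS-/- CON arrays, and H2-M9 was detected on 1 of 2 iNOS-/- M1 arrays. With each array left out in turn the unstimulated count of lower calls ran from 2 to 5 and the M1 count of higher calls from 2 to 6.

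**Figure D4:**
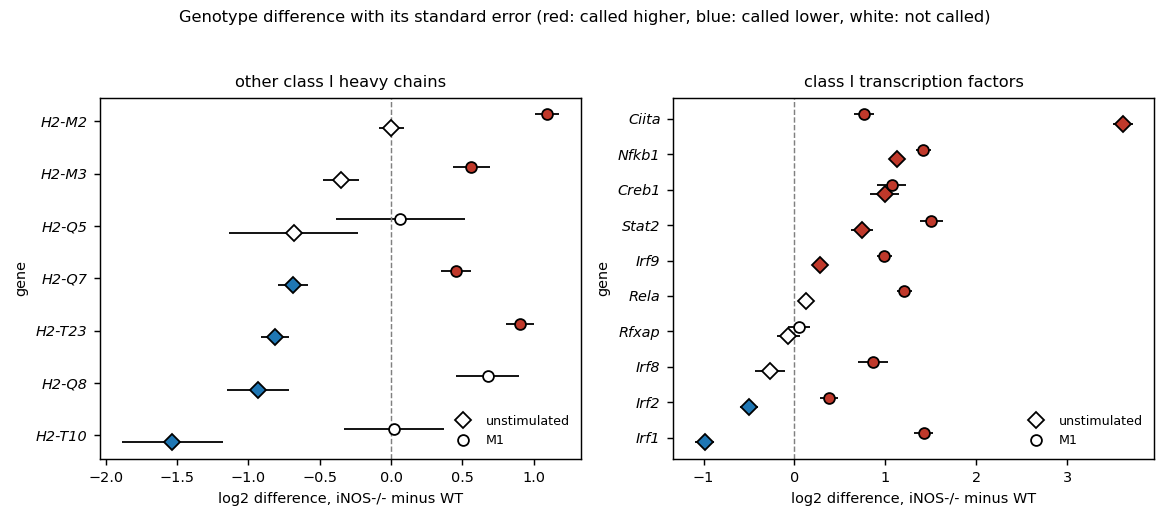
Log2 difference between genotypes (iNOS-/- minus WT) with its standard error, without stimulus (diamonds) and in M1 cells (circles), for the 7 other class I heavy chains detected on every array and 10 of the 11 class I transcription factors detected on every array. Filled points were called (red higher, blue lower). H2-T23, H2-Q7, Irf1 and Irf2 lie below 0 without stimulus and above 0 in M1 cells, although the M1 value of Irf2 falls below 0 under quantile normalization and neqc.

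The medians of the 9 genes stood apart from those of all genes tested in each comparison. The median difference between iNOS-/- M1 and WT M1 was 1.04 for the 9 and -0.03 for all, and without stimulus it was 1.03 and 0. The median response to activation was 1.16 for the 9 and 0.06 for all in WT, and 1.51 and -0.01 under the iNOS-/- label. By non-overlap of the arrays alone, iNOS-/- M1 lay above WT M1 for 8 of the 9 (37.3% of all genes), the exception being H2-K1. WT M1 lay above WT CON for 8 (39.2%), and iNOS-/- M1 above iNOS-/- CON for 9 (38.7%). On the unstimulated arrays iNOS-/- lay above WT for 5 (35.9%) and below for 3 (35.6%), H2-K1, B2m and Tapbp, the latter a share near that of all genes. The comparisons share arrays, so their counts are not independent of each other.

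The response to activation was compared between genotypes directly. It was larger under the iNOS-/- label for 4 of the 9 genes and smaller for 1, against 20.1% and 23.6% of all genes tested. The difference of responses was 1.33 for Psmb10 (standard error 0.16, adjusted p = 0.00258), 0.95 for Tapbp (standard error 0.17, adjusted p = 0.00967), 1.34 for H2-K1 (standard error 0.32, adjusted p = 0.0227), 0.40 for Tap2 (standard error 0.12, adjusted p = 0.0434) and -0.41 for Psme2 (standard error 0.11, adjusted p = 0.0353). Of these, the calls of the brighter Psmb10 and Tapbp probes held in all 17 alternative settings, though the Psmb10 value fell as low as 0.72. The Psmb10 probe at 776 gave 0.97 (adjusted p = 0.00496 from limma), a call lost under quantile normalization (0.39). The call of H2-K1 held in 11 settings, that of Psme2 in 8 and that of Tap2 in 5, and that of Tap2 changed sign under quantile normalization and neqc. For Tap1, Psmb8, Psmb9 and B2m the difference was not called.

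Regulators of class I genes were counted as a list of 14, of which 12 were tested. Nlrc5 was not in the table, so this regulator was not measured, and Rfx5 was not detected on any array. In M1 cells 10 of the 12 were called higher on the iNOS-/- arrays and 0 lower (23.7% and 26% of all genes), with a median of 1.03 against -0.03 for all genes. Stat2, which carries the type I interferon signal to the nucleus, was higher by 1.51 (adjusted p = 0.000605). Irf1, a factor that interferon-γ induces and that binds class I promoters, was higher by 1.42 (adjusted p = 0.000467). Without stimulus, 6 were called higher and 2 lower (17.9% and 16.2% of all genes). Other scalings gave 5 to 7 higher and 2 lower, and the count of higher calls fell with any array left out. The 2 lower calls were Irf1 at -0.99 (adjusted p = 0.00224) and Irf2 at -0.50 (adjusted p = 0.0162), the latter lost with any CON array left out. In M1 cells Irf2 was 0.38 higher (adjusted p = 0.026), a sign that turned under quantile normalization and neqc. On the unstimulated iNOS-/- arrays Ciita, the master regulator of class II genes, was higher by 3.61 (adjusted p = 6.58e-05) and Nfkb1 by 1.13 (adjusted p = 0.000651). On unstimulated arrays Irf1 had the direction of H2-K1 and H2-T23 and the opposite of Tap1, Tap2, Psmb8, Psmb9 and Psme2. For Nfkb1 and Ciita this was the other way round, and no link between these regulators and the class I genes was tested. With activation, 8 of 12 were called higher in WT (20.9% of all genes) and 10 of 12 under the iNOS-/- label (25.2%).

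The remaining lists are read against the same 23.7% of all genes called higher and 26% lower between the M1 groups. Of 11 tested genes for peptide loading and trimming, 3 were called higher and 3 lower, shares near that background, and each count ran from 1 to 3 with single arrays left out. Tapbpl, a relative of tapasin, was higher by 1.72 (adjusted p = 0.000471), and calreticulin (Calr), a chaperone of class I molecules, was lower by 0.99 (adjusted p = 0.00252). Of 7 tested regulators and assembly factors of the proteasome, 4 were higher, led by Psme1, and 2 lower, with Psmg2, an assembly chaperone, at -0.98 (adjusted p = 0.000674). Among 5 tested class I-like genes, 1 was called higher and 2 lower. Cd1d1, which presents lipids, was higher by 1.69 (adjusted p = 0.000286). Fcgrt, the neonatal Fc receptor, was lower by 1.54 (adjusted p = 0.000309) and Hfe by 0.80 (adjusted p = 0.0113 from limma). The call of Hfe was lost without WT M1 replicate 1 or iNOS-/- M1 replicate 1.

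The profile of the 9 genes over the 8 arrays, each gene standardized and the 9 then averaged, was most like that of Bfar (Pearson r = 0.9997), Oas1g (0.9987), AA467197 (0.9981), Dennd5a (0.9980) and LOC100045567 (0.9978), out of 4393 probes of other genes that were detected on every array and spanned at least 1 log2 unit between group means. The 8 points form 4 pairs of arrays of one group, so these values describe a shared order of groups. Single genes followed the mean profile with r between 0.64 for H2-K1 and 0.98 for Tap1.

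Markers of cell types also differed between the groups. Among 9 tested macrophage markers, 1 was called higher and 3 lower on the unstimulated iNOS-/- arrays (17.9% and 16.2% of all genes). Cd68 at -1.55 and Mertk at -1.45 were among the latter. In M1 cells 3 were higher and 4 lower (23.7% and 26% of all genes), Cd14 at 1.45 and Csf1r at -1.29 among them. Of 12 dendritic cell markers, 5 were detected on both arrays of WT CON, 9 in WT M1, 9 in iNOS-/- CON and 8 in iNOS-/- M1, and their summed intensity was 844 to 851, 16636 to 17185, 14237 to 15066 and 35715 to 37465. Ccl17 and Il4i1, at mean log2 intensities of 14.24 and 13.75 in iNOS-/- M1, made up most of that sum. Of the 10 tested, 8 were called higher and 0 lower on the unstimulated iNOS-/- arrays (17.9% and 16.2% of all genes). In M1 cells 3 were higher, 2 lower (Kmo at -1.39, and Cd209a, undetected in iNOS-/- M1) and 5 not called. These shares were near the 23.7% and 26% of all genes, but under the other scalings 4 to 6 were called higher and 2 to 3 lower. Flt3 was undetected in each group, and Xcr1 in all but iNOS-/- M1. Of 8 granulocyte markers, 3 were detected on both arrays of WT CON and 6 in each other group, with sums of 1124 to 1143, 1396 to 1501, 1681 to 1738 and 3861 to 3985, and Mpo and Retnlg were undetected throughout. The summed markers of dividing cells were 571 to 637, 1831 to 1955, 2144 to 2145 and 805 to 808. The dendritic cell sum had the order of groups of Tap1 and Psmb9. In RNA of whole cultures a change in the number of cells of a type and in RNA per cell cannot be told apart, and the part of these cells in the results was not tested.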

How the data were processed

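RNA of cultured macrophages was measured on 8 Illumina bead arrays, which the series calls MouseRef-8 and the methods MouseWG-8. The authors deposited intensity values and detection p-values per probe, exported by GenomeStudio and not normalized between arrays. The methods then name subtraction of background, rank-invariant scaling, a floor for negative values, log2 and limma (version 3.14.4 in the submitters' processing notes) with Benjamini-Hochberg adjustment. The header of the deposited table says that no background was subtracted, yet 25.2% to 27.2% of the intensity values on an array lay below 0, so no further background was subtracted here. Of the value columns, 0 lacked a sample.

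Arrays were scaled to the mean array by a robust line with no intercept (MASS 7.3.60.0.1), over probes whose rank moved by less than 0.05 of their rank in the mean array and lay between 0.5 and 0.9 of all ranks. The factors were 0.813 to 1.30. A floor of 1 preceded log2. Tested probes were those detected (p-value under 0.05) on 2 arrays or more. The test was limma 3.58.1 in R 4.3.3, a one-way model of 4 groups over 8 arrays, two-sided, adjusted over 13868 probes by Benjamini-Hochberg and called under 0.05. A gene with several probes is counted by the brightest. The procedure was tested on simulated data. For medians at bounds, undetected probes were set to the dimmest detected level. Members and lists were chosen with earlier results of these data known. The genes named are the members, at most 6 examples of each list, picked after their values were seen, and the 5 probes most alike. Gene names are those of the array design, and the 9 symbols matched RefSeq by Entrez number. Values of 1 listed transcription factor are counted with its list but not reported here.

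Alternatives were quantile normalization, neqc, a scaling line with an intercept, a floor of 16, no detection filter or detection on all 8 arrays, an intensity trend, averaged probes, the replicate number as a block, only the 4 arrays of a comparison, and each array left out in turn.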

Additional observations from a re-analysis of the deposited data

Results flagged for a closer look

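The response to M1 activation differed between genotypes, by a test of the difference itself, for 5 of the 9 genes. On the log2 scale the response under the iNOS-/- label minus that in WT was 1.34 for H2-K1, 0.40 for Tap2, 0.95 for Tapbp at position 1036, 1.33 for Psmb10 at position 867 and -0.41 for Psme2. H2-K1 and Tapbp started lower and ended higher on the iNOS-/- arrays than in WT, Psmb10 started level with WT, and Psme2 and Tap2 started above it. For the M1 difference of H2-K1 (0.36) and the unstimulated difference of Tapbp at 1036 (-0.25) the test did not call a change. With any array left out 2 to 3 of the 9 genes were called, and 3 with the replicate block. The call of Tap2 was lost or its sign turned in 12 of 17 alternative settings, that of Psme2 was lost in 9 and that of H2-K1 in 6.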

How the results depend on the processing

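Of 60 results for single probes, 40 kept their direction and their side of the threshold in each alternative in which they were recomputed, and over all 1053 recomputed values 38 lost a call, 29 gained one and 17 changed sign. Counts of called genes among the 9 stayed within 1.5 times the reported count, except that the difference of responses, with 5 genes reported, gave 3 with the replicate block and 2 to 3 with any array left out. No shared effect of the replicate number was seen, as the deviations of same-numbered arrays correlated between -0.0375 and 0.0247. These values cannot show whether same-numbered arrays came from the same mouse, culture or run. The block ended the calls of Tap2 and Psme2 for the difference of responses and of H2-K1 between unstimulated genotypes, and changed no other call. Signs changed mostly near 0. Between the M1 groups B2m gave -0.136 at 321 and -0.026 at 322 under quantile normalization, and likewise with neqc. Between unstimulated genotypes Psmb10 at 867 gave 0.057 under quantile normalization, 0.056 with neqc, 0.0017 with averaged probes, and -0.171 to 0.080 with single arrays left out. The WT response of H2-K1 was -0.014 and -0.012 under the first pair of settings and -0.084 to 0.291 with single arrays left out. The difference of responses was -0.061 for B2m at 321 in both, -0.22 and -0.20 for Tap2, and -0.084 and -0.063 for Psmb9. The causes were not tested. With an intercept, the share of higher calls among all called probes moved from 47.5% to 58.4% between the M1 groups and from 46.1% to 59.7% for the difference of responses. The median of all probes for the difference of responses moved from -0.05 to 0.33 with it. For the WT response the share moved from 59.3% to 47.4% under quantile normalization, 44.4% with neqc and 49.0% with an intercept. Over all probes, 4459 were called between unstimulated genotypes, and 2728 to 2838 without one of those arrays. The WT response had 4869, and 3134 to 3159 without WT CON replicate 1 or 2 or WT M1 replicate 2. Where an array was left out, its group had 1 array, assumed to vary like the others. Dim probes such as H2-T24 and H2-M9 lie near the background and limit the counts of heavy chains.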
